A study of Mus musculus with 96 samples.

Results

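This account concerns 32 genes of meiosis, chosen by name as genes of the germline programme, with earlier results of these data known. All 32 symbols matched an identifier among the 37620 genes of the count tables, and 31 of the 32 had enough reads to be tested in at least 1 comparison. The cells were mouse embryonic stem cells (ESCs), which do not enter meiosis. In all, 7 pairs of groups were sequenced for RNA, each with 2 libraries per group, and every pair was compared within its own count table.

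In the first pair, line R7.15 carried a floxed Rybp gene. Rybp-/- ESCs had received 5 µM 4-hydroxytamoxifen (4-OHT) for 4 days and were set against Rybp+/+ ESCs, so that the deletion and the drug cannot be told apart here. In line R1, hairpins against Rybp (shRybp) or Wdr5 (shWdr5) were each compared with the empty vector (shEV), and both comparisons used the same shEV cultures. The line rTRS carried a doxycycline-inducible Rybp_Stat3 integration and was sequenced without the drug (NTC) and with it (DOX). The second DOX library of that table carries another name than rTRS in its header and was placed by the drug, the replicate number and the labels, which give 4 samples for the table. Without it 17 of the 19 member calls of that comparison held, Taf7l and Brdt being lost. A J1 line with a Tet-on RYBP transgene (Tet.RYBP) was sequenced with vehicle and with DOX. R1 cells labelled TF-AA mutation were set against WT ESC, and the labels do not say what TF-AA stands for. Finally, R7.15 cells with RYBPfl/fl and Rosa26::CreERT2 received 4-OHT and overexpressed either WT RYBP (WT.RYBP) or RYBP lacking a stretch of 21 amino acids (RYBP phase disruption). The labels do not state whether replicates were separate cultures, so the p-values measure the spread between these libraries, which may be technical. Peak lists of chromatin immunoprecipitation (ChIP-seq) came from Rybp+/+ ESCs and from Rybp-/- ESCs given the same 4-OHT treatment. Others came from ESCs with shEV or a hairpin against Stat3 (shStat3), and from cells labelled Tet.Rybp.Stat3, without DOX and with it.

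RYBP is a subunit of the noncanonical forms of Polycomb repressive complex 1, in which RING1B places ubiquitin on histone H2A. One of these forms, PRC1.6, joins RYBP and PCGF6 to the DNA-binding proteins MGA, MAX, E2F6 and L3MBTL2, and it is known for keeping germline genes silent in ESCs. Meiosis itself is started by STRA8 in germ cells. Cohesins that contain REC8, SMC1B and STAG3 then hold sister chromatids, HORMAD proteins coat the chromosome axes, SPO11 cuts the DNA, DMC1 carries out strand exchange, and the synaptonemal complex zips homologues together until MSH4, MSH5 and MLH3 have produced crossovers. WDR5 belongs both to the H3K4 methyltransferases of the Trithorax group and to PRC1.6.

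Depth ranged from 14512857 reads on genes in a library of RYBP phase disruption to 81049618 in a library of Rybp+/+. Levels are given as CPM, counts relative to the TMM-scaled library size, and as RPKM, which also divides by gene length, where genes are compared with each other. The targeted genes were examined first. Rybp stood at 110.4 and 110.2 CPM in Rybp+/+ and at 24.8 and 25.0 CPM in Rybp-/-, and at 85.7 and 86.4 CPM in shEV against 35.8 and 36.6 CPM in shRybp. Wdr5 fell from 349.8 and 343 CPM to 60.0 and 58.2 CPM in shWdr5. In Tet.RYBP cells Rybp rose from 135 and 145 CPM to 522 and 535 CPM with DOX. In the rTRS line, by contrast, Rybp stood at 113 and 110.5 CPM without DOX and at 102 and 99.8 CPM in the libraries labelled DOX (log2 fold change −0.15, adjusted p = 0.0762), while Stat3 rose from 159 and 172 CPM to 191 and 188 CPM (log2 fold change 0.20, adjusted p = 0.0259). The induction named in the rTRS label was therefore not visible at the level of Rybp, and directions in that line are those of the libraries labelled DOX. WT.RYBP and RYBP phase disruption both held Rybp at high levels, 749 and 753 CPM against 662 and 626 CPM.

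All 7 comparisons were first read as a whole. Genes were counted as higher or lower if they passed edgeR's quasi-likelihood test at a Benjamini-Hochberg adjusted p under 0.05, with the adjustment made across the whole table. In RYBP phase disruption 17 of 30 tested members were higher and 1 was lower, where 16.1% of all genes were higher and 17% lower. In TF-AA mutation 15 of 29 were higher and 2 lower, beside 14.4% and 16.1% of all genes. The median log2 fold change of the members was 0.61 in RYBP phase disruption and 0.63 in TF-AA mutation, with medians over all genes tested of 0.00 and 0.01. The rTRS libraries labelled DOX went the other way. There 17 of 31 members were lower and 2 higher, beside 20.4% and 23% of all genes, and the members' median was −0.46 against 0.00.

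In Rybp-/- 11 of 31 members were higher and 8 lower, where 22.8% of all genes were higher and 22.7% lower, and the members' median was −0.01. In shRybp 10 of 30 were higher and 5 lower, beside 26.8% and 26% of all genes. In shWdr5 13 of 30 were higher and 8 lower, beside 31.5% of all genes higher and 31.5% lower. DESeq2 called 8 members higher in shWdr5, without Hormad2, Brdt, Prdm9, Sycp2 and Syce3. It also did not call Psmc3ip and Hormad2 in shRybp, Taf7l and Brdt in the rTRS line, Rec8, Tex14, Mlh3, Brdt, Hfm1 and Mei1 in TF-AA mutation, and Rec8, Msh5, Tex12 and Prdm9 in RYBP phase disruption. Medians of the members were 0.06 in shRybp and 0.10 in shWdr5. In Tet.RYBP with DOX 3 of 28 members (10.7%) were higher, beside 3.63% of all genes, and 0 were lower by edgeR, beside 2.39%. At an unadjusted p under 0.05, 7 members were higher and 1 lower there, and DESeq2 also called 0 lower. Members that were filtered out for low counts are in none of these numbers.

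**Figure D1:**
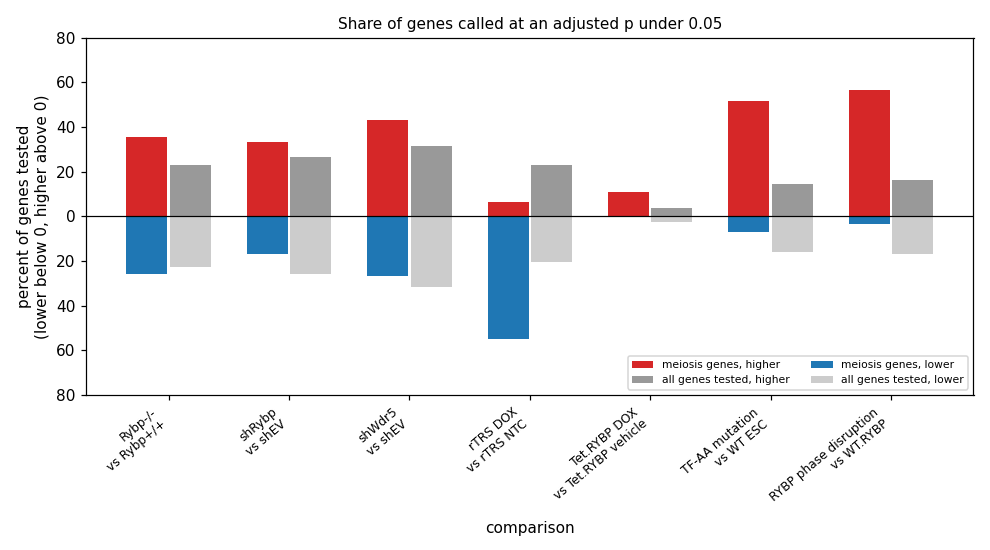
Percent of the genes tested that were higher (above 0) or lower (below 0) at an adjusted p under 0.05, for the meiosis genes (coloured bars) and all genes tested (grey bars) in each of the 7 comparisons. Members higher reach 17 of 30 in RYBP phase disruption and 15 of 29 in TF-AA mutation, and members lower reach 17 of 31 in the rTRS libraries labelled DOX.

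The members' median near 0 in Rybp-/- covered changes in both directions, and the rises were mostly wider than the falls. Of 8 genes of the synaptonemal complex and its partners, 5 were higher in Rybp-/-, beside 22.8% of all genes, while 2 of 4 meiotic cohesin genes and Tex14 were lower, beside 22.7%. Levels also differed widely in the control cells. Per length, Syce2 (48.2 RPKM in each Rybp+/+ library), Mnd1 (47.6 and 46.7 RPKM) and Trip13 (29.0 and 27.1 RPKM) were the highest members in Rybp+/+ ESCs. Sycp1 (0.275 and 0.204 RPKM), Sycp2 (0.107 and 0.0812 RPKM) and Brdt (0.206 and 0.180 RPKM) were among the lowest. These 3 low genes rose in Rybp-/-, whereas Syce2 and Mnd1 fell and Trip13 did not pass the test (adjusted p = 0.823). Not every scarce member rose. Tex12 (mean 0.145 CPM in Rybp+/+) did not pass (adjusted p = 0.245), Rad21l was not called, Spo11 was below the filter, and Msh4 fell.

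**Figure D2:**
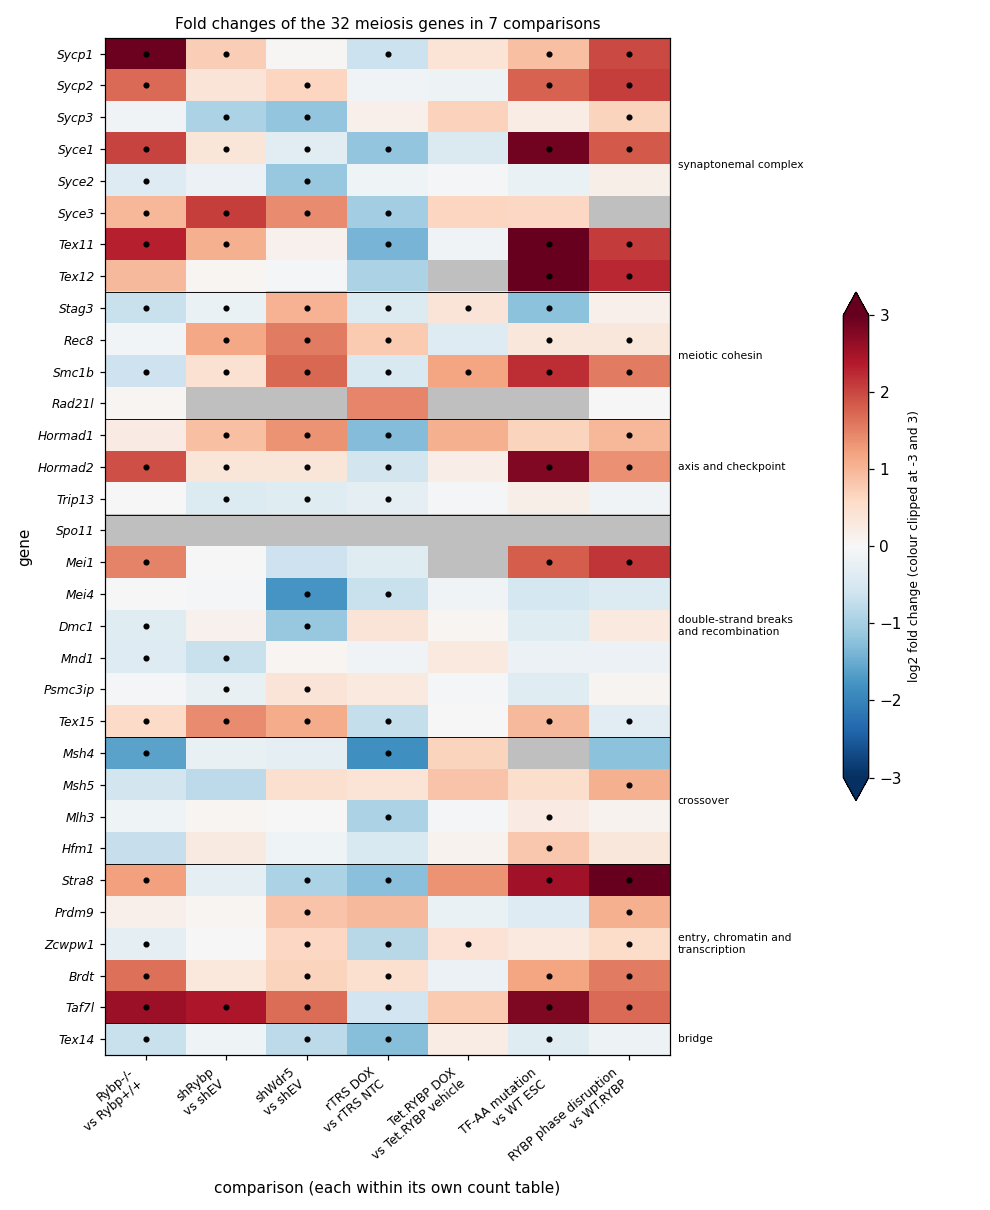
Log2 fold change of each of the 32 meiosis genes (rows, grouped by role) in the 7 comparisons (columns). Black points mark an adjusted p under 0.05 and grey cells mark genes with too few reads to test. Sycp1, Syce1, Tex11, Hormad2 and Taf7l were higher in Rybp-/-, TF-AA mutation and RYBP phase disruption and lower in the rTRS libraries labelled DOX.

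Sycp1 encodes the transverse filament of the synaptonemal complex. It rose from 0.954 and 0.708 CPM in Rybp+/+ to 6.18 and 6.69 CPM in Rybp-/- (log2 fold change 2.95, SE 0.182, adjusted p = 5.29e-15). This 7.74-fold difference was the widest among the called members of that comparison, and the groups did not overlap. In R1 cells it was already at 7.21 and 7.31 CPM in shEV, and shRybp brought it to 11.8 and 12.5 CPM (0.74, SE 0.121, adjusted p = 4.34e-05). The control cells thus differed from each other by more than the hairpin's effect, although they were counted in separate tables. RYBP phase disruption raised Sycp1 from 6.36 and 4.74 CPM to 23.8 and 19.9 CPM (1.98, SE 0.152, adjusted p = 1.67e-12). In TF-AA mutation it rose from 5.64 and 6.52 CPM to 10.1 and 12.6 CPM. The rTRS libraries labelled DOX held 5.14 and 6.50 CPM against 9.10 and 9.18 CPM without the drug, so this gene fell there. Neither shWdr5 nor Tet.RYBP with DOX moved it past the threshold (adjusted p = 0.862 and 0.207).

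Syce1 encodes a protein of the central element. It stood at 7.61 and 6.62 CPM in Rybp+/+ and at 28.9 and 29.5 CPM in Rybp-/- (2.04, SE 0.0802, adjusted p = 3.96e-20). In TF-AA mutation it rose from 12.3 and 10.4 CPM to 85.4 and 83.8 CPM (2.89, SE 0.106, adjusted p = 7.30e-16). That was the lowest adjusted p of any member in TF-AA mutation. RYBP phase disruption raised it from 11.2 and 14.7 CPM to 45.5 and 47.8 CPM (1.85, SE 0.106, adjusted p = 9.83e-16). In the rTRS line it fell from 48.0 and 40.9 CPM to 19.5 and 19.7 CPM (−1.18, SE 0.0988, adjusted p = 9.30e-07). The 2 hairpins moved Syce1 in opposite directions, from 32.0 and 32.3 CPM to 40.6 and 42.1 CPM in shRybp and from 30.3 and 30.6 CPM to 24.0 and 23.7 CPM in shWdr5. With DOX in Tet.RYBP cells it stood at 7.10 and 7.72 CPM against 11.4 and 8.69 CPM with vehicle (−0.44, SE 0.174), which did not pass (adjusted p = 0.142).

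Tex11 is an X-linked gene needed for synapsis and crossovers. Its level went from 4.40 and 4.49 CPM in Rybp+/+ to 22.3 and 22.4 CPM in Rybp-/- (2.33, SE 0.0895, adjusted p = 2.18e-20), the lowest adjusted p of the members there. With shRybp it doubled, from 10.8 and 9.76 CPM to 20.8 and 22.0 CPM (1.06, SE 0.101, adjusted p = 5.95e-08). TF-AA mutation gave a 9.68-fold rise, from 3.10 and 3.71 CPM to 32.2 and 33.8 CPM (3.28, SE 0.147, adjusted p = 2.92e-14). In RYBP phase disruption it rose from 10.5 and 8.48 CPM to 43.6 and 37.7 CPM (2.1, SE 0.116, adjusted p = 3.48e-16). The rTRS libraries labelled DOX showed the reverse, with 5.16 and 5.32 CPM against 13.1 and 14.6 CPM (−1.40, SE 0.136, adjusted p = 3.65e-06). In each of these comparisons the groups were apart, whereas in shWdr5 they overlapped.

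Other genes of the complex were less uniform. Sycp2, a lateral element protein, rose from 0.636 and 0.485 CPM to 1.79 and 1.88 CPM in Rybp-/-, from 0.907 and 1.19 CPM to 3.23 and 3.95 CPM in TF-AA mutation, and from 1.07 and 1.06 CPM to 4.75 and 4.30 CPM in RYBP phase disruption (2.08, SE 0.316, adjusted p = 3.02e-06). It was also higher in shWdr5, at 4.86 and 4.18 CPM against 2.95 and 2.78 CPM, a call lost without the first shWdr5 library. Its partner Sycp3 behaved otherwise. Sycp3 was higher in RYBP phase disruption (21.7 and 21.8 CPM against 13.4 and 13.8 CPM), lower in shRybp (4.28 and 3.66 CPM against 8.27 and 7.04 CPM) and lower in shWdr5 (3.18 and 3.07 CPM against 7.53 and 6.68 CPM). For Sycp3, 52.2% of the exon bases overlap exons of Chpt1 on the other strand, and since the sources used here do not say whether counting used strand, reads of the 2 genes cannot be told apart. Syce2, another central element gene, fell from 94.8 and 94.8 CPM to 72.2 and 73.0 CPM in Rybp-/- (−0.38, SE 0.0406, adjusted p = 1.60e-09). In shWdr5 it fell from 42.5 and 35.5 CPM to 17.7 and 17.7 CPM (−1.14, SE 0.0905, adjusted p = 1.66e-10). Syce3 was scarce, with 0.480 and 0.381 CPM in shEV against 1.34 and 2.32 CPM in shRybp, and 0.468 and 0.354 CPM in the shEV of the other table against 1.03 and 1.20 CPM in shWdr5. It was higher in Rybp-/- as well (0.865 and 0.708 CPM to 1.45 and 1.70 CPM) and lower in the rTRS libraries labelled DOX (2.58 and 2.27 CPM to 1.27 and 1.10 CPM). The Syce3 call was lost in Rybp-/- without the second Rybp-/- library, in shWdr5 without the second library of either group and in the rTRS line without the first NTC library. Tex12 was near the limit of detection, with 2 and 0 reads in WT ESC against 20 and 42 reads in TF-AA mutation (adjusted p = 4.20e-05) and with 1 and 4 reads in WT.RYBP against 13 and 10 reads in RYBP phase disruption, where the call was lost without the first library of either group. No fold change is given for Tex12 in TF-AA mutation, where the control rests on these few reads.

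**Figure D3:**
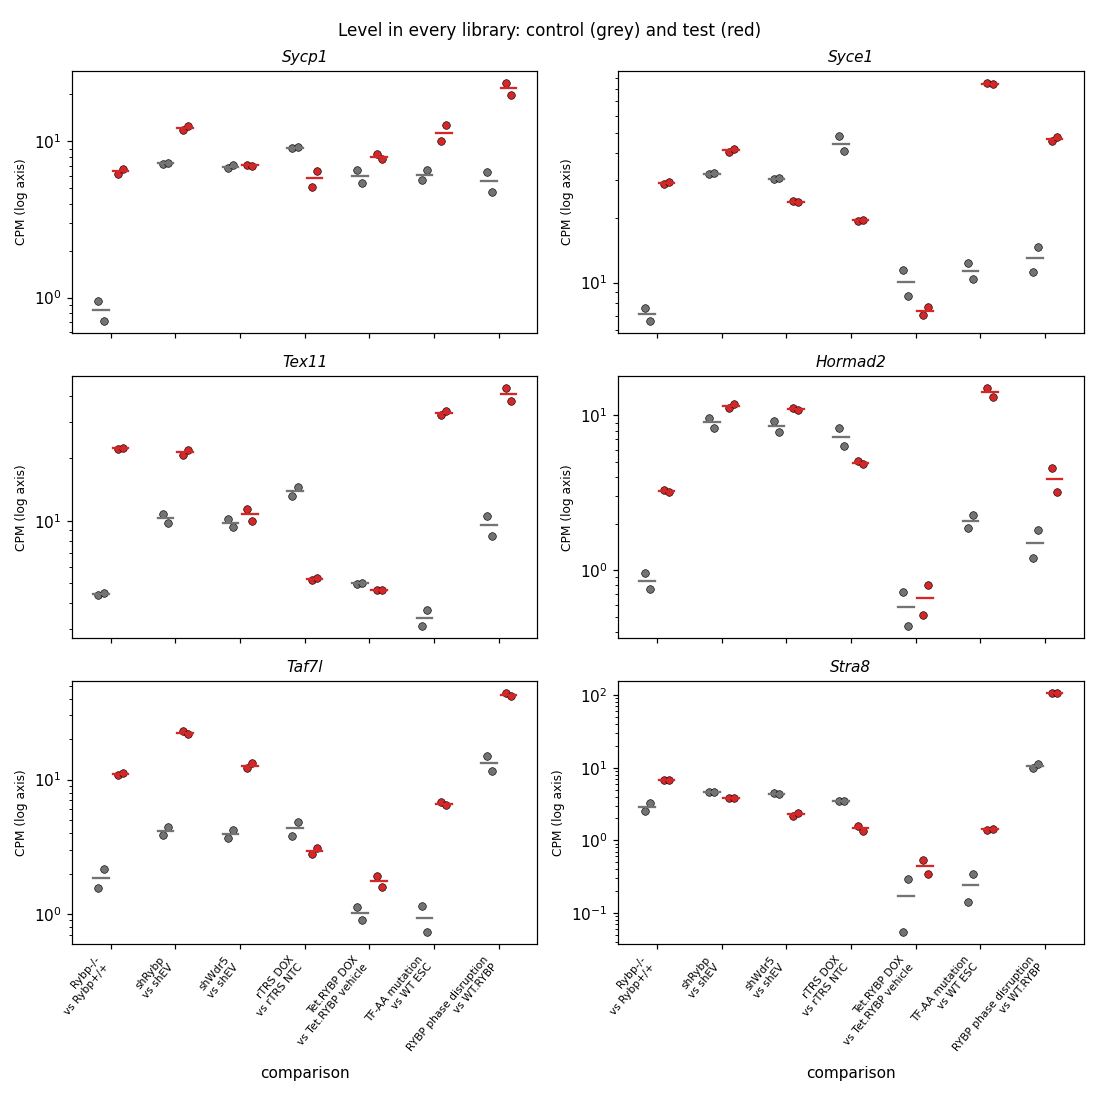
Level of 6 members in every library, in CPM on a log axis, with control libraries in grey, test libraries in red and horizontal lines at the mean of 2 libraries. Sycp1, Syce1, Tex11, Hormad2, Taf7l and Stra8 lie higher in the test libraries of Rybp-/-, TF-AA mutation and RYBP phase disruption and lower in the rTRS libraries labelled DOX.

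Calls of the 4 meiotic cohesin genes were mixed, with 2 of 4 lower in Rybp-/-, beside 22.7% of all genes, and 3 of 3 tested higher in shWdr5, beside 31.5%. Stag3, the meiotic stromal antigen subunit, fell from 61.3 and 64.1 CPM to 39.2 and 39.7 CPM in Rybp-/- (−0.67, SE 0.0489, adjusted p = 3.47e-13) and from 72.5 and 79.7 CPM to 32.5 and 32.8 CPM in TF-AA mutation (−1.22, SE 0.0920, adjusted p = 4.12e-10). In shWdr5 it doubled, from 78.7 and 78.2 CPM to 161 and 160.4 CPM (1.04, SE 0.0513, adjusted p = 3.53e-14). That was the lowest adjusted p of the members under shWdr5. Tet.RYBP with DOX raised it slightly, from 44.6 and 42.3 CPM to 54.5 and 58.6 CPM (0.38, SE 0.0841, adjusted p = 0.00383), and this call was lost without the second DOX library (adjusted p = 0.152). It was lower by smaller amounts in shRybp (69.2 and 75.7 CPM against 83.6 and 82.5 CPM, lost without the first shRybp library) and in the rTRS libraries labelled DOX (65.9 and 62.1 CPM against 82.8 and 87.8 CPM). RYBP phase disruption left it at 42.0 and 43.4 CPM against 38.9 and 37.3 CPM, which did not pass (adjusted p = 0.121).

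Rec8 encodes the kleisin of meiotic cohesin. It was higher in 5 of the 7 comparisons, the rTRS libraries labelled DOX included, and did not pass in Rybp-/- and Tet.RYBP. Hairpins gave the clearest rises, from 13.2 and 12.9 CPM to 28.4 and 30.2 CPM in shRybp (1.16, SE 0.0881, adjusted p = 3.01e-09) and from 12.9 and 12.2 CPM to 37.0 and 37.2 CPM in shWdr5 (1.56, SE 0.0868, adjusted p = 2.89e-13). In the rTRS line it rose from 20.5 and 17.1 CPM to 34.2 and 30.8 CPM (0.79, SE 0.110, adjusted p = 8.33e-05). The deletion of Rybp left it between 14.9 and 16.7 CPM, beside 15.8 and 17.7 CPM in Rybp+/+ (adjusted p = 0.412), and there the groups overlapped. Rises in TF-AA mutation (16.9 and 14.8 CPM to 19.0 and 20.9 CPM) and RYBP phase disruption (16.2 and 13.4 CPM to 18.4 and 19.3 CPM) were small, and they were lost without single libraries, namely either TF-AA library or the second WT ESC library in the first case and the second library of WT.RYBP or of RYBP phase disruption in the other.

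Smc1b, the meiotic SMC1 subunit, was the only member that passed the test in all 7 comparisons. It fell from 10.6 and 9.87 CPM to 6.28 and 6.96 CPM in Rybp-/- and from 25.7 and 23.2 CPM to 18.1 and 17.6 CPM in the rTRS libraries labelled DOX. In the other 5 it was higher. The rises were from 7.53 and 6.38 CPM to 23.4 and 22.3 CPM in shWdr5 (1.71, SE 0.112, adjusted p = 5.43e-12), from 5.18 and 4.72 CPM to 11.4 and 11.0 CPM in Tet.RYBP with DOX (1.18, SE 0.176, adjusted p = 2.35e-05) and from 0.907 and 1.78 CPM to 6.76 and 5.60 CPM in TF-AA mutation (2.20, SE 0.280, adjusted p = 1.57e-06). RYBP phase disruption raised it from 4.84 and 5.18 CPM to 14.1 and 15.4 CPM (1.55, SE 0.160, adjusted p = 1.74e-09). In shRybp the rise was from 7.89 and 6.66 CPM to 11.3 and 8.67 CPM. It was not called there without the second shEV library or without the first shRybp library. Rad21l, a further meiotic kleisin, could be tested in 3 comparisons and passed in none of them by edgeR (adjusted p from 0.145 to 0.985). Its counts were 20 and 23 reads in Rybp+/+ and 15 and 28 reads in Rybp-/-.

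Among the axis and checkpoint genes, Hormad2 was higher in 5 comparisons and lower in 1. Its call in shWdr5 was lost without the second shEV or the first shWdr5 library. It rose from 0.954 and 0.758 CPM to 3.31 and 3.21 CPM in Rybp-/-, from 1.86 and 2.27 CPM to 15.1 and 13.2 CPM in TF-AA mutation (2.77, SE 0.193, adjusted p = 1.24e-10) and from 1.20 and 1.81 CPM to 4.55 and 3.23 CPM in RYBP phase disruption. In R1 cells it was at 9.68 and 8.35 CPM in shEV and at 11.1 and 11.9 CPM with shRybp, a call that was lost without the second library of either group. In the rTRS libraries labelled DOX it was lower, at 5.05 and 4.85 CPM against 8.30 and 6.31 CPM. Its paralogue Hormad1 had another profile. It did not pass in Rybp-/- (5.06 and 6.15 CPM against 4.92 and 4.52 CPM, adjusted p = 0.134), but it rose in shRybp from 5.99 and 6.52 CPM to 11.4 and 12.1 CPM (0.91, SE 0.127, adjusted p = 8.04e-06) and in shWdr5 from 5.61 and 6.02 CPM to 14.4 and 15.2 CPM (1.35, SE 0.124, adjusted p = 2.21e-09). It was also higher in RYBP phase disruption, at 11.4 and 11.8 CPM against 5.85 and 5.86 CPM. In the rTRS line it fell from 6.85 and 6.92 CPM to 2.52 and 3.06 CPM (−1.30, SE 0.184, adjusted p = 9.56e-05), while in Tet.RYBP cells it stood at 3.36 and 2.73 CPM with DOX and 1.16 and 1.74 CPM with vehicle (1.07, SE 0.347, adjusted p = 0.0630). Trip13, the ATPase that removes HORMAD proteins from the axes, was abundant. It fell from 92.2 and 89.7 CPM to 69.4 and 68.5 CPM in shRybp (−0.40, SE 0.0544, adjusted p = 5.53e-06), and fell as well in shWdr5 (from 87.1 and 84.7 CPM to 66.6 and 67.0 CPM) and in the rTRS libraries labelled DOX (from 86.2 and 86.4 CPM to 68.8 and 71.5 CPM).

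The 7 genes of double-strand breaks and recombination had no common direction. Spo11, whose product makes the breaks, was below the filter in every comparison and reached at most 16 reads in a library. Mei1, needed for break formation, rose from 0.840 and 0.932 CPM to 2.48 and 2.53 CPM in Rybp-/-, from 0.944 and 0.749 CPM to 2.72 and 4.84 CPM in RYBP phase disruption and from 0.334 and 0.198 CPM to 1.19 and 0.694 CPM in TF-AA mutation. The rise in TF-AA mutation rested on 24 and 13 reads against 7 and 4 reads and was lost when the first TF-AA library or the second WT library was left out. Mei4, another break factor, fell from 1.96 and 1.92 CPM to 0.701 and 0.432 CPM in shWdr5 and from 8.20 and 7.50 CPM to 4.80 and 5.03 CPM in the rTRS libraries labelled DOX. Dmc1, the meiotic recombinase, fell from 17.2 and 16.5 CPM to 13.0 and 13.0 CPM in Rybp-/- and from 5.19 and 3.49 CPM to 2.57 and 1.39 CPM in shWdr5. Genes of its cofactors differed in direction between comparisons. Mnd1 fell from 41.6 and 40.8 CPM to 31.2 and 31.8 CPM in Rybp-/- and from 32.9 and 31.3 CPM to 20.8 and 19.7 CPM in shRybp (−0.67, SE 0.0804, adjusted p = 1.33e-06). In Tet.RYBP with DOX it stood at 37.1 and 36.2 CPM against 31.6 and 28.6 CPM (0.28, SE 0.0984, adjusted p = 0.0849). Psmc3ip, whose product pairs with MND1, was lower in shRybp (19.1 and 18.2 CPM against 21.8 and 22.0 CPM) and higher in shWdr5 (26.3 and 28.4 CPM against 20.8 and 20.9 CPM). Psmc3ip shares 21.2% of its exon bases with Mlx on the other strand. The call in shRybp was lost without any 1 of the 4 libraries.

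Tex15, needed to load recombinases, passed in 6 comparisons. It rose from 41.8 and 43.6 CPM to 64.7 and 63.1 CPM in Rybp-/- (0.58, SE 0.0481, adjusted p = 6.84e-12), from 10.5 and 7.50 CPM to 25.5 and 22.8 CPM in shRybp (1.42, SE 0.124, adjusted p = 2.06e-08) and from 10.1 and 7.29 CPM to 19.4 and 18.3 CPM in shWdr5 (1.11, SE 0.124, adjusted p = 4.77e-08). In TF-AA mutation it rose from 22.0 and 23.5 CPM to 42.1 and 47.4 CPM (0.98, SE 0.105, adjusted p = 1.38e-07). It fell in the rTRS libraries labelled DOX, from 39.1 and 44.2 CPM to 24.0 and 27.0 CPM (−0.71, SE 0.0976, adjusted p = 7.42e-05). It was also the 1 member lower in RYBP phase disruption, at 68.9 and 60.7 CPM against 80.9 and 81.7 CPM.

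Crossover genes were called in few comparisons. Msh4, a MutS homologue, fell from 2.35 and 2.22 CPM to 0.762 and 0.741 CPM in Rybp-/- and from 1.96 and 1.66 CPM to 0.539 and 0.471 CPM in the rTRS libraries labelled DOX. Its partner Msh5 was higher in RYBP phase disruption (2.85 and 2.15 CPM against 1.13 and 1.25 CPM), and this was lost under 3 of the 4 single-library omissions. Mlh3, a MutL homologue, fell in the rTRS line from 77.4 and 78.5 CPM to 39.9 and 40.4 CPM (−0.96, SE 0.0730, adjusted p = 4.00e-07). In TF-AA mutation it was 1.18-fold higher, at 113 and 116 CPM against 87.1 and 106 CPM. Hfm1, the crossover helicase, was higher in TF-AA mutation (4.03 and 3.95 CPM against 2.24 and 2.32 CPM). Both TF-AA calls were lost when either TF-AA library was left out, and that of Mlh3 also without the first WT ESC library.

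Genes of meiotic entry, chromatin and transcription included the widest rise of RYBP phase disruption, where all 5 of them were higher, beside 16.1% of all genes. Stra8, the switch into meiosis, rose from 9.94 and 11.1 CPM to 105 and 106 CPM there (3.32, SE 0.0864, adjusted p = 2.23e-25). In Rybp-/- it rose from 2.51 and 3.22 CPM to 6.82 and 6.66 CPM and in TF-AA mutation from 0.143 and 0.346 CPM to 1.39 and 1.44 CPM, which are 3 and 7 reads against 28 and 27 reads. It fell in shWdr5 (4.44 and 4.35 CPM to 2.15 and 2.40 CPM) and in the rTRS libraries labelled DOX (3.50 and 3.48 CPM to 1.6 and 1.34 CPM). In shRybp it did not pass, at 3.77 and 3.79 CPM against 4.65 and 4.62 CPM (adjusted p = 0.181). Taf7l, an X-linked TFIID paralogue, was the member with the lowest adjusted p in shRybp, with 22.9 and 21.7 CPM against 3.89 and 4.46 CPM (2.42, SE 0.118, adjusted p = 6.92e-12). Its rise in Rybp-/- was from 1.56 and 2.16 CPM to 10.9 and 11.2 CPM (2.57, SE 0.137, adjusted p = 1.33e-16). In shWdr5 it went from 3.69 and 4.25 CPM to 12.1 and 13.3 CPM (1.68, SE 0.144, adjusted p = 6.66e-10), in TF-AA mutation from 1.15 and 0.741 CPM to 6.76 and 6.51 CPM (2.80, SE 0.274, adjusted p = 3.21e-08) and in RYBP phase disruption from 14.8 and 11.6 CPM to 43.8 and 41.5 CPM (1.69, SE 0.106, adjusted p = 1.12e-14). Taf7l was thus higher in 5 comparisons, and in the rTRS libraries labelled DOX it was lower by a small margin (2.79 and 3.08 CPM against 3.82 and 4.86 CPM, adjusted p = 0.0489), which was lost under 3 of the 4 single-library omissions.

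Brdt, the testis bromodomain protein, rose from 1.06 and 0.920 CPM to 3.10 and 3.09 CPM in Rybp-/- and from 4.22 and 3.49 CPM to 12.0 and 10.6 CPM in RYBP phase disruption (1.55, SE 0.185, adjusted p = 3.26e-08). It was also higher in TF-AA mutation (1.34 and 1.76 CPM against 0.573 and 0.790 CPM), in shWdr5 (3.74 and 4.08 CPM against 1.92 and 3.04 CPM) and in the rTRS libraries labelled DOX (6.34 and 6.22 CPM against 3.95 and 5.08 CPM). Calls in these last 3 comparisons were lost without single libraries, each time including at least 1 control and 1 test library. Zcwpw1, a reader of the PRDM9 marks, was higher in RYBP phase disruption (23.7 and 25.7 CPM against 16.7 and 16.9 CPM) and shWdr5 (29.0 and 29.6 CPM against 20.0 and 18.0 CPM) and slightly lower in Rybp-/- (15.8 and 14.6 CPM against 19.4 and 17.7 CPM), where the call was lost without the first Rybp+/+ library. It fell in the rTRS line from 34.8 and 30.2 CPM to 19.4 and 17.3 CPM (−0.83, SE 0.106, adjusted p = 4.29e-05). In Tet.RYBP with DOX it rose from 20.8 and 19.1 CPM to 26.7 and 27.0 CPM (0.43, SE 0.111, adjusted p = 0.0150), a call that either DOX library decided (adjusted p = 0.111 without the first and 0.128 without the second). Zcwpw1 shares 18.4% of its exon bases with Pilra on the other strand. Prdm9, which places the marks that direct recombination, was higher in shWdr5 (1.64 and 1.63 CPM against 0.889 and 0.911 CPM) and in RYBP phase disruption (3.12 and 3.16 CPM against 1.76 and 1.25 CPM). The shWdr5 call was lost under all 4 single-library omissions and the other without the second WT.RYBP library.

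Tex14 is needed for the stable intercellular bridges that join germ cells. It was lower in 4 comparisons. In the rTRS line it fell from 51.2 and 54.7 CPM to 21.4 and 22.5 CPM (−1.27, SE 0.0864, adjusted p = 1.41e-07), the lowest adjusted p of the members there. It fell from 37.7 and 40.3 CPM to 23.4 and 25.6 CPM in Rybp-/- (−0.67, SE 0.0609, adjusted p = 5.99e-11) and from 39.5 and 43.8 CPM to 23.8 and 24.8 CPM in shWdr5 (−0.78, SE 0.0785, adjusted p = 1.00e-08). In TF-AA mutation it was at 19.0 and 19.3 CPM against 24.2 and 25.4 CPM, which was lost without either TF-AA library. In Tet.RYBP cells it stood at 48.6 and 41.3 CPM with DOX against 36.9 and 40.3 CPM (0.22, SE 0.0948, adjusted p = 0.190). Tex14 starts 111 bp from Rad51c, Smc1b 142 bp from Ribc2, Stag3 235 bp from Gpc2 and Trip13 71 bp from Brd9, each on the other strand. For these 4 members a peak at the start belongs to both genes.

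Rybp-/-, TF-AA mutation and RYBP phase disruption were set side by side after their results were seen, because members rose in each, so the counts that follow describe these comparisons and are no test. They share no libraries, although the first and the last were made in the same line. Of the 28 members tested in all 3, 9 (32.1%) were higher in every one, namely Sycp1, Sycp2, Syce1, Tex11, Hormad2, Mei1, Stra8, Brdt and Taf7l. Over all 13526 genes tested in all 3 comparisons, 427 (3.16%) were higher in every one. In shRybp, 5 of the 9 members (55.6%) were also higher (Sycp1, Syce1, Tex11, Hormad2 and Taf7l), as were 314 (73.5%) of the 427 genes. Of the 9 members, 6 were also lower in the rTRS libraries labelled DOX, whereas 101 (23.7%) of the 427 genes were. Sycp2, Mei1 and Brdt were the exceptions, and Brdt was higher in that line. Mei1 and Brdt depended in TF-AA mutation on single libraries, as did Hormad2 and Taf7l in the rTRS line.

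Markers of a two-cell-like state moved in every comparison, including shWdr5, where they fell while more members were higher than lower. The summed level of 3 Zscan4 genes (Zscan4c, Zscan4d and Zscan4f), which mark two-cell-like cells within ESC cultures, was between 0.174 and 0.204 CPM in Rybp+/+ and between 46.3 and 47.0 CPM in Rybp-/-. It went from between 0.0988 and 0.764 CPM to between 44.0 and 44.1 CPM in TF-AA mutation, and from between 41.6 and 45.0 CPM to between 379 and 399 CPM in RYBP phase disruption. In shRybp it rose from between 40.0 and 42.4 CPM to between 172 and 181 CPM, and in Tet.RYBP with DOX from between 0.277 and 0.782 CPM to between 4.13 and 4.94 CPM. It was lower in shWdr5 (between 14.4 and 15.3 CPM, from between 37.6 and 39.4 CPM) and in the rTRS libraries labelled DOX (between 10.8 and 11.5 CPM, from between 23.5 and 25.3 CPM). Whether the meiosis genes changed in those cells or in all cells was not tested, and fewer cells of a type cannot be told apart from less RNA per cell in bulk samples.

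Other markers moved less evenly. None of 6 ESC markers was at 0 in every library of a comparison, and their summed level lay between 2182 and 5874 CPM in the controls. It fell in the rTRS libraries labelled DOX from between 3706 and 3858 CPM to between 2193 and 2307 CPM, beside the falls of the members there. It was also lower in shRybp (between 4826 and 4837 CPM, from between 5632 and 5874 CPM) and in shWdr5 (between 4523 and 4565 CPM, from between 5299 and 5526 CPM). It rose in Rybp-/- from between 2975 and 3052 CPM to between 3330 and 3338 CPM, with 4 of 6 markers higher and 1 lower. In TF-AA mutation it rose from between 3933 and 4082 CPM to between 4200 and 4272 CPM, with 2 of 6 markers higher. In RYBP phase disruption it went from between 2182 and 2234 CPM to between 2255 and 2274 CPM. The summed level of 5 fibroblast feeder markers rose from between 56.1 and 56.8 CPM to at least 113 CPM in both libraries of Rybp-/- and from between 11.0 and 11.7 CPM to between 24.0 and 24.7 CPM in TF-AA mutation, where 1 of the 5 was at 0 in every library. In shRybp it rose from between 18.6 and 18.8 CPM to between 30.7 and 31.9 CPM. In WT.RYBP and RYBP phase disruption it was high in both groups, between 420.4 and 427 CPM and between 341 and 364 CPM. Primitive endoderm and primordial germ cell markers were also examined. The summed level of the endoderm markers rose from between 12.0 and 14.3 CPM to between 29.5 and 30.0 CPM in shWdr5 and from between 12.3 and 14.9 CPM to between 18.5 and 19.4 CPM in shRybp, with 3 of 4 markers higher and 1 lower in each. In TF-AA mutation it rose from between 7.86 and 8.21 CPM to between 14.0 and 14.2 CPM, with 1 of 2 tested markers higher and 2 of 4 germ cell markers lower. In the rTRS libraries labelled DOX the endoderm sum was lower, between 1.63 and 1.64 CPM from between 2.94 and 2.96 CPM, with 1 of 4 markers lower. Of the 4 germ cell markers, 1 was higher (Dppa3, 4.23-fold) and 2 were lower (Prdm1 and Dnd1) in shRybp, and 1 was higher (Dppa3, 5.40-fold) and 1 lower (Dnd1) in shWdr5, where their sum went from between 27.8 and 29.5 CPM to between 21.7 and 23.2 CPM. In Rybp-/- 1 of 4 endoderm markers was higher and 2 of 4 germ cell markers were lower, and in RYBP phase disruption 1 of 3 endoderm markers was higher while 1 germ cell marker was higher and 2 were lower. The germ cell sum rose in RYBP phase disruption, from between 46.7 and 51.4 CPM to between 69.1 and 71.7 CPM. It fell in Rybp-/- from between 104 and 110 CPM to between 97.2 and 97.9 CPM. In TF-AA mutation it fell from between 42.8 and 45.2 CPM to between 27.3 and 28.4 CPM. The part of these cells in the members' changes was not tested.

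Genes of the wider germline programme were read from lists beside the members. Of 17 tested germline and piRNA genes, 13 were higher and 2 lower in Rybp-/-, 15 were higher in TF-AA mutation, and 10 of 16 were higher in RYBP phase disruption, beside 22.8%, 14.4% and 16.1% of all genes higher. In the rTRS libraries labelled DOX 11 of 18 were lower and 2 higher, beside 20.4% and 23%. Piwil2, which encodes a Piwi protein, had log2 fold changes of 1.96 in Rybp-/-, 1.68 in shRybp, 3.37 in TF-AA mutation and −1.06 in the rTRS line. Ddx4, the germline helicase, had 1.54 in Rybp-/-, 1.65 in shWdr5 and 1.48 in RYBP phase disruption. In shRybp 10 of 18 were higher and 1 (Pld6) lower, beside 26.8% and 26% of all genes. In shWdr5 10 of 16 were higher and 2 (Gtsf1 and Sohlh2) lower, beside 31.5% and 31.5%, and in Tet.RYBP with DOX 2 of 15 were higher, beside 3.63%. Further genes of meiosis outside the members were read in the same way. Of 16 tested in Rybp-/-, 5 were higher and 3 lower, beside 22.8% and 22.7% of all genes. Of 16 in shRybp, 8 were higher and 3 lower, beside 26.8% and 26%. In TF-AA mutation 5 of 16 were higher, beside 14.4%, and in RYBP phase disruption 6 of 15, beside 16.1%. Of 17 tested in shWdr5, 6 were higher and 3 lower, beside 31.5% and 31.5%, and in the rTRS libraries labelled DOX 4 of 17 were lower, beside 20.4%. Iho1, a partner of MEI4 in break formation, had log2 fold changes of 1.13 in Rybp-/-, 1.89 in TF-AA mutation and 1.32 in RYBP phase disruption.

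Subunits of PRC1.6 other than Rybp and Wdr5 mostly changed by less than 1 on the log2 scale. Among 14 subunit genes, Rybp and Wdr5 included, 6 were lower and 4 higher in Rybp-/-, beside 22.7% of all genes lower and 22.8% higher. In shRybp 12 were lower and 2 higher, beside 26% and 26.8%, and in RYBP phase disruption 9 were lower and 3 higher, beside 17% and 16.1%. In TF-AA mutation 2 were lower and 2 higher, beside 16.1% and 14.4%. In the rTRS libraries labelled DOX 7 were lower and 2 higher, beside 20.4% and 23%, and in shWdr5 6 were lower and 4 higher, beside 31.5% and 31.5%. In Tet.RYBP with DOX 0 were lower and 1, Rybp itself, was higher, beside 2.39% and 3.63%. E2f6 was higher, with log2 fold changes of 0.64 in Rybp-/-, 0.73 in shRybp and 1.12 in TF-AA mutation. Mga fell by 0.43 on the log2 scale in Rybp-/- and by 0.39 in RYBP phase disruption, and it rose by 0.43 in shWdr5 (adjusted p = 3.42e-08). Rybp itself was 1.47-fold higher in shWdr5 (adjusted p = 3.81e-09). L3mbtl2 fell by 0.39 in TF-AA mutation and by 0.46 in the rTRS libraries labelled DOX.

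Knockout and knockdown of Rybp were then compared directly, by testing the Rybp-/- effect minus the shRybp effect. The effect was higher in the knockout for 11 of 31 tested members and lower for 9, beside 22.2% and 18.2% of all genes, and the members' median difference was 0.12 against 0.02. It was higher for 5 of 8 genes of the synaptonemal complex and 2 of 5 genes of entry, chromatin and transcription. Differences in log2 fold change were 1.70 for Syce1 (SE 0.107, adjusted p = 1.82e-11), 2.23 for Sycp1 (SE 0.214, adjusted p = 1.54e-08), 1.29 for Tex11 (SE 0.133, adjusted p = 4.17e-08), 1.6 for Hormad2 (SE 0.225, adjusted p = 3.99e-06) and 1.55 for Stra8 (SE 0.226, adjusted p = 6.12e-06). Effects were lower in the knockout for the 4 cohesin genes, with −1.22 for Rec8 (SE 0.125, adjusted p = 3.96e-08) and −0.45 for Stag3 (SE 0.0758, adjusted p = 4.31e-05). Tex15 also rose less in the knockout (−0.82, SE 0.128, adjusted p = 1.61e-05). Syce3, with log2 fold changes of 1.00 in the knockout and 2.07 in the knockdown, did not pass (adjusted p = 0.109). For Taf7l the difference was 0.17 (SE 0.191, adjusted p = 0.526), with rises of 5.92-fold in the knockout and 5.35-fold in the knockdown. Rad21l was called in this test on 2 and 0 reads in shEV, so no fold is given, and the call was lost under 6 of the 8 single-library omissions. The lines differ (R7.15 and R1), as do the means of depletion, and these cannot be told apart.

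**Figure D4:**
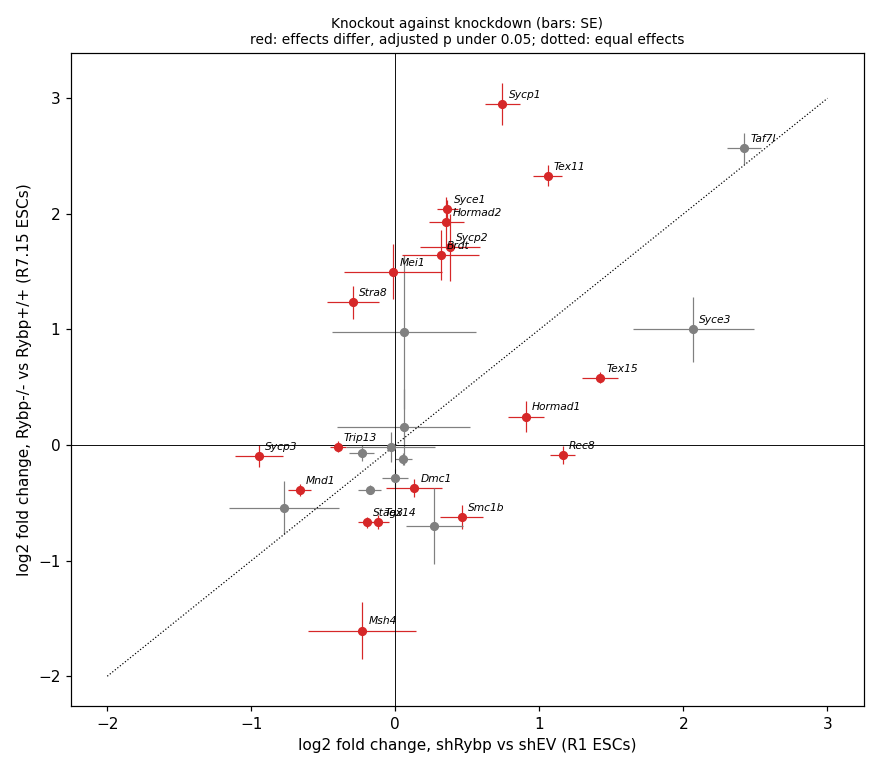
Log2 fold change of each member tested in both comparisons, in shRybp (horizontal axis) and in Rybp-/- (vertical axis), with SE bars. Red points mark members whose effects differed at an adjusted p under 0.05, and the dotted line marks equal effects. Syce1, Sycp1, Tex11, Hormad2 and Stra8 lie above the line, Rec8 and Tex15 below it, and Taf7l close to it.

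A second test set the effect in the rTRS libraries labelled DOX against that of DOX in Tet.RYBP cells. It was lower in the rTRS line for 15 of 30 members and higher for 1, beside 15.5% and 13.5% of all genes, and the members' median difference was −0.68 against −0.03. Differences were −1.51 for Tex14 (SE 0.135, adjusted p = 1.50e-07), −1.66 for Smc1b (SE 0.180, adjusted p = 1.68e-06), −0.93 for Mlh3 (SE 0.108, adjusted p = 3.54e-06) and −1.28 for Zcwpw1 (SE 0.153, adjusted p = 4.91e-06). Hormad1 had −2.39 (SE 0.361, adjusted p = 6.43e-05), Stag3 −0.82 (SE 0.107, adjusted p = 1.32e-05) and Tex11 −1.32 (SE 0.232, adjusted p = 0.000287). Rec8 was the 1 member with a higher effect in the rTRS line (1.15, SE 0.204, adjusted p = 0.000313). Of the 6 ESC markers 5 were lower in the rTRS line, and the effects on 5 of the 6 were lower there than in Tet.RYBP cells by the same test.

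Chromatin at the members' starts was read from 14 peak lists on mm9, in which a gene was marked when a peak came within 1 kb of its 5′ end. H3K4me3, the mark of active and poised promoters, was present at 29 of 32 members in Rybp+/+ and at 31 in Rybp-/-, beside 63.8% and 64.0% of 22380 protein-coding genes. H3K27ac, the mark of active promoters, was present at 20 and 22 members, beside 47.6% and 50.2%. WDR5 was present at 16 members in Rybp+/+ and 24 in Rybp-/-, beside 43.4% and 45.7%. In Rybp-/- a WDR5 peak was listed anew at 9 of 32 members and missing at 1 (Hfm1), while of 22380 protein-coding genes 1014 were new and 498 missing. The 9 were Sycp1, Sycp3, Syce1, Syce3, Tex11, Mei4, Dmc1, Taf7l and Tex14. These lists came from pooled replicates, so no test of the differences was possible, and a peak near the caller's threshold can appear or vanish with depth.

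RING1B, the catalytic subunit of PRC1, was listed at 28 of 32 members in shEV, beside 42.0% of protein-coding genes. Since most members had H3K4me3, the share was also taken among genes with an H3K4me3 peak in Rybp+/+. It was 26 of 29 members (89.7%) beside 65.3% of such genes. In cells labelled Tet.Rybp.Stat3, RING1B was at 29 members without DOX (DOX−) and 26 with it (DOX+), beside 50.8% and 38.4%, and at the 26 shared members the median fold enrichment over input was 11.4 and 8.31. It was higher with DOX at 4 of the 26 (15.4%), beside 11.9% of all genes, so the lower enrichment with DOX was general. With a hairpin against Stat3 (shStat3) RING1B was listed at the same 28 members as in shEV, beside 38.1% of protein-coding genes. Over all genes, 1592 of the 9392 listed in shEV were missing and 716 were new. The lists of shEV and shStat3 each came from a single library, so no spread between replicates is known for them. Among the members, the strongest RING1B peaks of the DOX− list lay at Sycp1 (40.4-fold over input), Tex12 (37.3-fold) and Taf7l (36.9-fold). A total of 25 members had RING1B in all 4 lists, 4 (Trip13, Mlh3, Prdm9 and Tex14) in some of them, and 3 (Rad21l, Spo11 and Stra8) in none, beside 31.9%, 21.2% and 46.9% of protein-coding genes. None of these lists came from WT.RYBP or RYBP phase disruption cells.

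STAT3 was listed at 0 members in Rybp+/+ and at 1 in Rybp-/- (Tex15), beside 6.28% and 5.43% of genes, and each list came from a single library. In the Tet.Rybp.Stat3 cells the list labelled STAT3 without DOX had a peak at 0 members and the list labelled STAT3 with DOX at 29, beside 7.72% and 52.5% of genes. These lists held 2816 and 30663 peaks. At 28 of these 29 members the RING1B list of the DOX− cells held a peak as well. Of the 11755 protein-coding genes with a peak in the list labelled STAT3 with DOX, 10429 had both and 1326 had the peak of that list alone. At single members the fold enrichment in the list labelled STAT3 with DOX and of RING1B without it was 38.4 and 40.4 at Sycp1, 24.9 and 36.9 at Taf7l, 12.2 and 18.0 at Syce2, and 10.9 and 21.2 at Smc1b. The list labelled STAT3 with DOX thus differed in extent from the other 3 STAT3 lists, and whether it holds STAT3 peaks or those of another antibody was not tested, so its counts are not given as STAT3 occupancy.

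Peak strength was compared between Rybp+/+ and Rybp-/-. Of the 11 members whose RNA rose, 10 had an H3K4me3 peak in both, and it was stronger in Rybp-/- at 9 of them, beside 59.2% of the 3159 protein-coding genes whose RNA rose and that had a peak in both. The fold enrichment went from 12.4 to 19.7 at Sycp1, from 7.63 to 13.5 at Syce1, from 4.94 to 7.01 at Tex11, from 6.00 to 13.8 at Brdt and from 8.61 to 16.4 at Stra8. It differed less at Sycp2 (8.72 to 11.0), Mei1 (11.1 to 13.2), Taf7l (14.3 to 16.1) and Syce3 (3.48 to 4.30), and at Tex15 it went from 35.2 to 34.1. At Hormad2 no peak was listed in Rybp+/+ and one of 4.53-fold in Rybp-/-. Of the 8 members whose RNA fell, 3 had a stronger peak in Rybp-/-, beside 51.2% of 3425 such genes. Stag3 went from 29.1 to 20.4 and Mnd1 from 34.5 to 27.1, whereas Tex14 went from 15.4 to 29.6 and Smc1b from 4.89 to 10.2. Over the 29 members with a peak in both, 18 (62.1%) were stronger in Rybp-/-, beside 55.2% of all genes. H3K27ac peaks were listed in Rybp-/- alone at Sycp1, Syce1 and Hormad2, with fold enrichments of 2.63, 3.29 and 4.38, and in Rybp+/+ alone at Mei4.

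**Figure D5:**
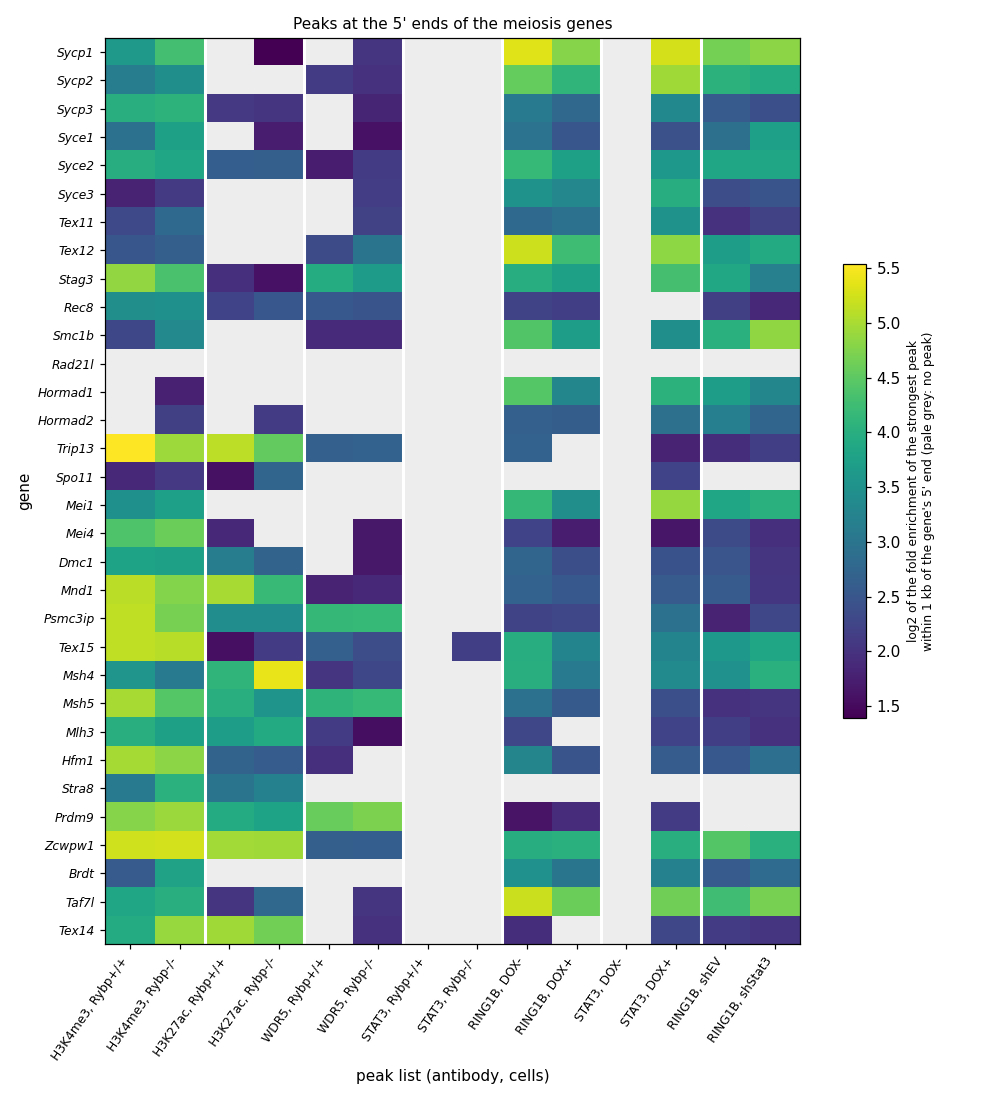
Fold enrichment over input (log2 colour scale) of the strongest peak within 1 kb of the 5′ end of each meiosis gene (rows) in 14 peak lists (columns), with pale grey where no peak was listed. RING1B peaks lie at 28 of 32 members in shEV, and peaks at 29 members in the list labelled STAT3, DOX+ and at no more than 1 in the other 3 STAT3 lists.

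Promoter sequences were read from the mm9 genome, 250 bases before to 50 after the 5′ end of each gene, and searched on both strands for 4 fixed strings. CACGTG is the E-box bound by MAX dimers, and it was found in 8 members (25%), namely Sycp1, Sycp3, Tex12, Hormad1, Mei1, Tex15, Brdt and Taf7l, beside 7.78% of all protein-coding promoters of the same length. GCGGGAA, a site of the E2F6 type, was found in 8 members (Sycp3, Tex11, Tex12, Smc1b, Hormad1, Msh5, Prdm9 and Tex14), beside 5.58%. AGGTGTGA, the half-site of T-box proteins such as MGA, was found in 2 (Sycp3 and Brdt), beside 1.11%, and the STAT string TTCCNGGAA in 0, beside 1.15%. None of these strings contains another. The members' promoters had a median GC content of 59%, beside 55% over all, which bears on how often GC-rich strings occur. A set of 5 promoters is shown, 5′ to 3′ on the strand of the gene, with the matched strings in capitals. Sycp1 and Taf7l rose in most comparisons and each hold an E-box, Tex11 holds 2 E2F6-type strings, and Hormad1 holds both kinds. Stra8 holds none of the 4 and had no RING1B peak. Sycp2, Syce1, Syce3 and Hormad2, which were also higher in Rybp-/-, hold none of the 4 either. Of the 8 members with an E2F6-type string, Tex11 alone was higher in Rybp-/-, while Smc1b and Tex14 were lower.
Sycp1: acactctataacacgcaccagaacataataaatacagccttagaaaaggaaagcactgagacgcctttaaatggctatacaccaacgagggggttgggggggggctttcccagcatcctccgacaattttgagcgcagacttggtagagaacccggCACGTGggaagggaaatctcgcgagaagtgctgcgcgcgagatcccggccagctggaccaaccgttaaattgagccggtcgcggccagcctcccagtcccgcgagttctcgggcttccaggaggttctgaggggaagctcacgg
Taf7l: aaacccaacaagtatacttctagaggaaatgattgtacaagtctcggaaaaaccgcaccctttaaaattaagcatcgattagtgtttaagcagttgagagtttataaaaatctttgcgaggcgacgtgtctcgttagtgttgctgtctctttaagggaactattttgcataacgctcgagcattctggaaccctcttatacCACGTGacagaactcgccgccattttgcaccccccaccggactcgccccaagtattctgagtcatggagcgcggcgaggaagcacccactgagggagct
Tex11: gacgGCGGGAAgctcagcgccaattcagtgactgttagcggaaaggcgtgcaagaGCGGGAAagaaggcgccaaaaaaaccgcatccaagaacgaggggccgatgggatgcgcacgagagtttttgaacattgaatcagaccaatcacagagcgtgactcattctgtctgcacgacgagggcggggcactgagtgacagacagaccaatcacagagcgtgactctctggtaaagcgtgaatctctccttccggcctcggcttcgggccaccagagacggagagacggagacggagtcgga
Hormad1: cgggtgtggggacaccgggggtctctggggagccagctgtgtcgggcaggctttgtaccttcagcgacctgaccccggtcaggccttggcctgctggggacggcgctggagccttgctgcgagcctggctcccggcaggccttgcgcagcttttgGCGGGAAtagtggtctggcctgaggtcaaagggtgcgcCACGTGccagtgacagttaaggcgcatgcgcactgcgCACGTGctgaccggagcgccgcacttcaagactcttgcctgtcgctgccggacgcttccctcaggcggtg
Stra8: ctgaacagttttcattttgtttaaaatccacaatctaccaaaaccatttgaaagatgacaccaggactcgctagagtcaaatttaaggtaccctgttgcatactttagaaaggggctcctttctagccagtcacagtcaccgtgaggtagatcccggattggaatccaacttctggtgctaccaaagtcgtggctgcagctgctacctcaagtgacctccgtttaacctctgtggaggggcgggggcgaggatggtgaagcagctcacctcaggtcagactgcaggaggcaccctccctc
These lie at chr3:102739974-102740273 (Sycp1, minus strand), chrX:131010980-131011279 (Taf7l, minus strand), chrX:98254957-98255256 (Tex11, minus strand), chr3:95363349-95363648 (Hormad1, plus strand) and chr6:34869913-34870212 (Stra8, plus strand) of mm9. A match is a description of the sequence, and binding at it was not measured here.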

How the data were processed

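RNA-seq of mouse ESCs was analysed as 7 tables of raw counts per gene. The authors' methods state that reads were trimmed with Trim Galore, aligned to mm9 with STAR and counted with HTSeq before the counts were deposited, and the submitters' processing notes name the same tools and build for all 26 RNA libraries, without their order. The strand setting and library kit are not given in the sources used here. Rows that name no gene held 13.7% to 58.5% of reads where present and were left out. For ChIP-seq, the authors aligned reads with Bowtie2 and called peaks with MACS2. The deposited lists give each peak's fold enrichment (a ratio over input) and its −log10 q-value. Lists for H3K4me3, H3K27ac and WDR5 and those of the DOX cells came from merged replicates. Those of RING1B in shEV and shStat3 and of STAT3 in Rybp+/+ and Rybp-/- each came from a single library.

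Counts were tested with edgeR 4.0.16 (R 4.3.3): TMM scaling, filterByExpr with a minimum count of 10 and total of 15, the quasi-likelihood test and Benjamini-Hochberg adjustment over all genes tested. SE is the absolute log2 fold change divided by the square root of F. DESeq2 1.42.0, other scaling, no filter, a replicate block and single-library omissions were alternatives, and the procedure was checked on simulated data. A gene had a peak when 1 bp or more lay within 1 kb of its 5′ end in the NCBIM37 annotation. Members, lists and tests were chosen with earlier results of these data known. All members are accounted for by role. Full statistics are given for at most 8 members per comparison with the lowest adjusted p, library values for members called in 2 or more of the 7 comparisons (others were added by role after their values were seen), and at most 3 genes with the lowest adjusted p per other list. The empty-vector libraries of the shWdr5 table hold 0.509 and 0.506 of the reads of those in the shRybp table, with counts correlated at 0.99999, and were taken as the same libraries counted again.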

Additional observations from a re-analysis of the deposited data

Results flagged for a closer look

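Effects under a like manipulation differed for 8 members between knockout and knockdown of Rybp, by edgeR's interaction test with adjusted p over all genes. Knockout minus knockdown, in log2 fold change, was 2.23 for Sycp1, 1.70 for Syce1, 1.29 for Tex11, 1.6 for Hormad2 and 1.55 for Stra8. Stra8 rose in the knockout and did not pass in the knockdown, where its log2 fold change was −0.30. It was −1.22 for Rec8, −0.82 for Tex15 and −0.45 for Stag3.

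Effects in the rTRS libraries labelled DOX differed from those of DOX in Tet.RYBP cells for 8 members by the same test. The difference was −1.51 for Tex14, −1.66 for Smc1b, −0.93 for Mlh3, −1.28 for Zcwpw1, −2.39 for Hormad1, −0.82 for Stag3 and −1.32 for Tex11, and it was 1.15 for Rec8. These members are the 8 with the lowest adjusted p in each test. The lines and the transgenes differ as well as the responses, and their parts cannot be told apart.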

How the results depend on the processing

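None of the members with the lowest adjusted p, at most 8 per comparison, reversed direction under any alternative that was run. No called member reversed when a single library was left out, and no tested member changed sign under RLE size factors. Reversals of other members under the remaining alternatives were not checked. Counts of members called stayed within 1.5 times the reported one in 156 alternatives and moved further in 27, and for the members with the lowest adjusted p, at most 8 per comparison, 631 values kept their side of the threshold, 6 gained it and 3 lost it. Over all members, 27 of the 112 calls in the 7 comparisons were lost without at least 1 library, as were 9 of the 36 in the 2 tests of a difference in effect. With an absolute log2 fold change above 1 also required, which by construction leaves fewer calls, members lower were 1 in Rybp-/-, 0 in shRybp, 4 in shWdr5, 7 in the rTRS line, 1 in TF-AA mutation and 0 in RYBP phase disruption, and members higher were 5 in shRybp, 7 in shWdr5, 0 in the rTRS line and 1 in Tet.RYBP. Under the same requirement 4 were lower in the knockout minus knockdown test and 9 in the rTRS minus Tet.RYBP test. DESeq2 called 8 higher in shWdr5, 1 higher in the rTRS line and 1 lower in TF-AA mutation. RLE size factors gave 1 higher in the rTRS line and 2 lower in RYBP phase disruption, and no low-count filter gave 4 lower in TF-AA mutation. The cause was not tested. Over all genes DESeq2 called 2980 in RYBP phase disruption where edgeR called 4814.

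The replicate block gave 5 members higher in Tet.RYBP and 5 lower in TF-AA mutation. Same-numbered libraries share only a number, with 2 pairs per comparison and correlations of their deviations from −0.04 to 0.45, and the block changed genes called from 7070 to 8559 in the rTRS line, from 4412 to 5525 in TF-AA mutation and from 899 to 1211 in Tet.RYBP. Without single libraries, members lower ranged from 3 to 5 in shRybp, from 0 to 1 in Tet.RYBP, from 1 to 3 in TF-AA mutation and from 1 to 2 in RYBP phase disruption. Members higher ranged from 1 to 4 in Tet.RYBP and from 1 to 2 in the rTRS minus Tet.RYBP test. The low ends in shRybp, Tet.RYBP and TF-AA mutation came without the first shRybp, the second DOX and the second TF-AA library. Peaks of STAT3 in Rybp+/+ were at 1 member with a window of 2.5 kb and at 1 with any annotated start, the latter chosen after seeing the data. With 2 libraries per group and few reads, changes of Spo11, Rad21l and Tex12 were not detectable or rest on few reads.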
